A study of Mus musculus with 3 samples.

Results

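Day 3 wells with much Ino80 RNA (at least 1000 CPM) were set against wells with little (under 100 CPM), where CPM is a count per 1000000 counts of nuclear-encoded mouse genes. Ino80-high wells held more chaperone, proteasome, injury and fetal-program RNA and less RNA of calcium cycling, ion channels, adult sarcomere and fatty acid oxidation. The wells were chosen by their own measured Ino80 level, so the Ino80 difference is no finding. Of 1099 day 3 wells, 1092 had at least 1000 counts and 300 detected genes. A further 150 were left out for macrophage or fibroblast transcripts (a summed level of at least 1000 CPM of Lyz2, C1qa, C1qb and C1qc in 66 wells, of Dcn, Col1a1, Col3a1 and Lum in 86, and of both sets in 2). This left 433 Ino80-high and 458 Ino80-low wells, 891 of the 3394 wells of the series, and 51 wells between the cuts that were not compared.

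The series profiled heart cells of tamoxifen-treated mice, labelled adult cardiomyocytes, in nanowells on the iCELL8 platform, where imaging picks wells with a single nucleated, dye-excluding cell. It holds 1 library each after 1, 2 and 3 days. The day 1 and day 2 libraries carry the genotypes D1_INO80_OE and D2_INO80_OE. The day 3 library carries both D3_INO80_OE and D3_Ctrl, but which wells belong to which genotype is not given in any file. The series title names Myh6-MCM;Ino80fl/fl, whereas the labels read INO80_OE and the design text speaks of Ino80 induction. Which manipulation was made is therefore not settled here. All groups received tamoxifen. The sources used here do not give the age or number of the animals. Genotype, animal and handling cannot be told apart between Ino80-high and Ino80-low wells. With 1 library there is no replicate and no test: each difference compares sets of wells of that library.

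Ino80 is the ATPase of the INO80 complex, a chromatin remodeller that moves nucleosomes and acts on promoters, replication forks and DNA breaks. Myh6-MCM is a transgene in which the cardiomyocyte promoter of Myh6 drives MerCreMer, a Cre recombinase fused to oestrogen receptor ligand-binding domains that tamoxifen activates, so reads of the transgene can be counted to Esr1. Adult ventricular cardiomyocytes devote much of their RNA to sarcomere, calcium-handling and mitochondrial genes. Under load or injury they are known to turn on natriuretic peptides, skeletal muscle isoforms, chaperones and secreted repair factors.

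Ino80 (ENSMUSG00000034154.15, chromosome 2, 119373042 to 119477687, minus strand, mm10) was at 1013, 2826 and 10718 CPM in the lowest, median and highest Ino80-high well, and at 0, 15.8 and 98.7 CPM in the Ino80-low wells. Pooled over wells it was at 3045 and 18.3 CPM, against 2636 CPM on day 1 and 4831 CPM on day 2. The Ino80-high wells thus lay in the range of the earlier libraries. The wells nearest the lower cut had 98.7 and 103.6 CPM, and those nearest the upper cut had 990 and 1013 CPM. Within 1.5-fold of the lower cut were 17 wells below it and 11 above it, and within 1.5-fold of the upper cut were 11 below and 35 above. The 11 wells just over 100 CPM had a median of 17603 CPM of Myh6 and 338 CPM of Hspb1, and the 17 just below it had 14328 and 572 CPM. The 11 wells just under 1000 CPM of Ino80 had 3722 CPM of Myh6 and 4866 CPM of Hspb1, and the 35 just above had 4291 and 4748 CPM.

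**Figure D1:**
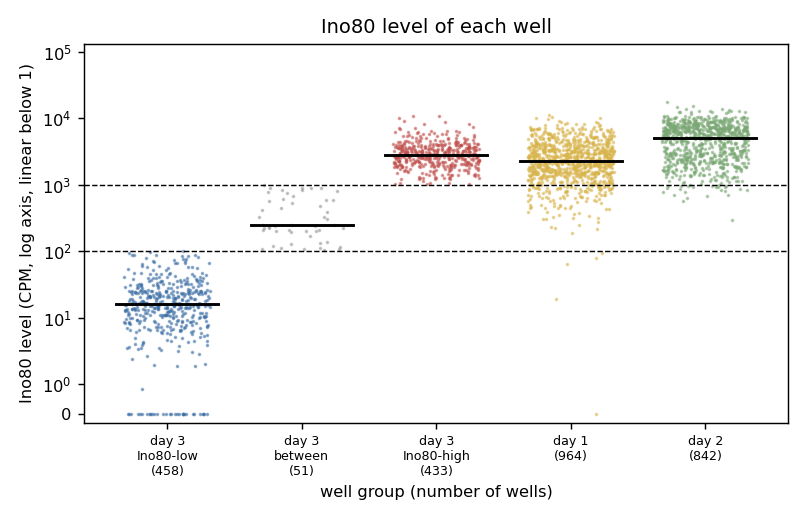
Ino80 level of each well (CPM, log axis that is linear below 1) in the day 3 well groups and in day 1 and day 2 wells after the same filters; points are wells, bars are medians and dashed lines are the cuts at 100 and 1000 CPM. The 433 Ino80-high wells share the range of the day 1 and day 2 wells, and the 458 Ino80-low wells lie below nearly all of them.

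Transcripts that can come from the transgenes were also higher in Ino80-high wells. Esr1 had a median of 42.3 CPM per Ino80-high well, from 0 to 1880 CPM, and of 0 CPM per Ino80-low well, up to 34.1 CPM. Its pooled level was 95.1 and 0.802 CPM, against 449 CPM on day 1 and 407 CPM on day 2, so Ino80-high wells held less than either earlier library. Gt(ROSA)26Sor, a transcript of a locus often used for transgenes, was at 33.3 and 1.35 CPM. The added sequence EGFP was counted in 9.70% of Ino80-high wells and 0.873% of Ino80-low wells (4.22 and 0.0224 CPM), with 27.6% of the counts of Ino80-high wells from a single well. The Y-linked genes Ddx3y (69.9 and 71.6 CPM) and Eif2s3y (30.7 and 32.1 CPM) stood at like levels in Ino80-high and Ino80-low wells, while the sparser Kdm5d (5.27 and 10.1 CPM) and Uty (1.95 and 6.04 CPM) were lower in Ino80-high wells. A single well gave 35.0% of the Ino80-high counts of Kdm5d and 25.9% of those of Uty.

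The Ino80-high wells were shallower, with a median of 307645 counts against 438362, although both groups had about the same number of detected genes (medians 3854 and 3871.5). Mitochondrial counts made up a median of 19.8% (quartiles 17.6 and 24.5) in Ino80-high and 22.2% (20.2 and 26.7) in Ino80-low wells, against 40.3% on day 1 and 43.2% on day 2. The day 3 table shared 268 well barcodes with day 1 and 247 with day 2. The label adult cardiomyocyte was checked against 12 ventricular markers, whose summed level passed 5000 CPM in 100% of wells of both groups. That check separates little in these data, because wells dropped for macrophage markers held Myh6, the main adult myosin heavy chain, at 75.4% of its Ino80-high level and 87.9% of its Ino80-low level.

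Many transcripts of other cell types were also higher in Ino80-high wells. Genes enter these counts by a mean of at least 10 CPM on days 1 and 2, since a mean over the compared wells lets in genes for being high in 1 group. Of all 6049 genes with such a mean over the compared wells, 37.8% were at least 1.5-fold higher and 19.7% lower. Only 2 of 11 macrophage markers passed, both at least 1.5-fold higher: Lyz2, a lysozyme, at 43.5 and 13.9 CPM and C1qb, a complement subunit, at 23.7 and 6.30 CPM. Below that level on days 1 and 2 were Csf1r, the receptor of macrophage growth factor, at 80.3 and 3.97 CPM and Cd68, a lysosomal protein, at 32 and 1.48 CPM. The summed macrophage markers ranged from 0 to 2495 CPM (median 115) in Ino80-high and from 0 to 1386 CPM (median 10.6) in Ino80-low wells, so the groups overlapped. Of 12 endothelial markers 11 passed and 7 were higher. Their sum ranged from 13 to 11658 CPM (median 854) and from 0 to 6931 CPM (median 376), and it reached 1000 CPM in 46.4% and 27.7% of wells.

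Atrial markers differed more in share of wells, with a sum of at least 1000 CPM in 68.6% of Ino80-high and 21% of Ino80-low wells. The sum ranged from 56.0 to 51472 CPM (median 1414) and from 0 to 54443 CPM (median 545). Of 9 atrial markers 8 passed, with 6 higher and 1 lower. Myl4, an atrial myosin light chain, was at 407 and 153 CPM, Sln, sarcolipin, at 1117 and 602 CPM and Nppa, the atrial natriuretic peptide precursor, at 224 and 32.9 CPM, whereas Sbk2 was at 9.82 and 16.5 CPM. Bmp10, an atrial growth factor at 10.1 CPM on day 1 and 0.0139 CPM on day 2, did not pass and was at 76.9 and 1.48 CPM.

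Pericyte and smooth muscle markers reached a sum of 1000 CPM in 13.4% and 6.33% of wells, with 4 of the 8 that passed higher and 2 lower. All 4 erythroid genes that passed were higher, with Hbb-bs, a beta-globin, at 496 and 81.8 CPM and 29.4% of its Ino80-high counts from a single well. Fibroblast markers were higher in 3 of 5, though their sum reached 1000 CPM in 4.39% and 3.71% of wells. Neutrophil markers were higher in 3 of 3, with 28.4% to 34.3% of their Ino80-high counts from a single well. S100a8 was detected in 13.4% and 13.5% of wells, S100a9 in 9.01% and 5.90% and Retnlg in 10.4% and 11.4%. Of 4 endocardial markers that passed, 2 were higher and 2 lower. The part of any of these markers in the differences below was not tested.

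Across the transcriptome the groups differed widely. Of 6049 genes with a mean of at least 10 CPM, 1414 (23.4%) were at least 2-fold higher in Ino80-high wells and 694 (11.5%) at least 2-fold lower, so 67.1% of the genes apart were higher. With median-of-ratios size factors in place of total counts that share was 32.3% (677 higher and 1421 lower), and the median gene moved from a log2 ratio of 0.26 to −0.29. Those factors were taken over all nuclear-encoded genes counted in both groups, including genes under 10 CPM. They therefore did not set the median of the 6049 genes to 0. With total counts and no minimum level, 22295 genes had a median log2 ratio of 0.58. Whether more genes were higher or lower thus rests on the scaling. Log2 ratios, list medians and fold calls below are taken against 0, while the median gene stood at 0.26. At a 1.5-fold difference, used for gene lists, 2286 genes (37.8%) were higher and 1194 (19.7%) lower, 57.5% in all. Unless day 1 and day 2 levels are named, list members were taken as measured by the same mean over the compared wells. Some members thus enter only through the group where they are high, and list counts are descriptions. At 2-fold, 34.8% of genes were apart in either direction.

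The largest absolute differences among genes higher in Ino80-high wells were those of small heat shock proteins, which hold unfolding proteins in solution. Hspb1 (HSP27) was at 702, 4675 and 16847 CPM in the lowest, median and highest Ino80-high well and at 0, 408 and 5233 CPM in Ino80-low wells. Only 1 of the 458 Ino80-low wells reached the median of the Ino80-high wells. Pooled levels were 4896 CPM (exact Poisson 95% interval 4883 to 4908) and 479 CPM (476 to 482), a 10.2-fold difference and a log2 ratio of 3.35 (3.34 to 3.36). These intervals treat each count as independent and leave out the spread between wells. PCR copies of 1 molecule may be counted more than once, so the intervals may be too narrow even for counting error. Cryab, alpha-B-crystallin, had per-well medians of 6731 (1818 to 16854) and 2718 (0 to 5574) CPM. Hspa1a, the inducible HSP70, had medians of 459 (0 to 4739) and 5.82 (0 to 1365) CPM, and its pooled level was 540 against 27.9 CPM (log2 ratio 4.28). Hspa1b, a near-identical copy that can take or lose its reads, was at 184 and 20.4 CPM.

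Of 20 genes of heat shock and protein quality control, all measured, 14 were at least 1.5-fold higher and 1 was lower, with a median log2 ratio of 0.87. With size factors 8 were higher and 3 lower. Beside the small heat shock proteins they included Hsp90aa1, the inducible cytosolic HSP90 (1513 and 154 CPM), Hsph1, an HSP110 (235 and 71.7 CPM), and Ubb, a polyubiquitin gene (4492 and 1422 CPM). The mitochondrial chaperonins Hspd1 (301 and 372 CPM) and Hspe1 (335 and 383 CPM) were within 1.5-fold, and Chordc1, an HSP90 co-chaperone, was the lower member (28.4 and 62.5 CPM). The proteasome, which degrades ubiquitin-tagged proteins, stood higher as a block: all 26 measured subunits of 27 were at least 1.5-fold higher (median 1.40). They ran from Psmb2 (437 and 248 CPM) to Psma5 (399 and 69.9 CPM). The count of 26 was taken with total counts. With size factors the median of every list moved by over 0.29 on the log2 scale.

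Promoters of Hspb1 and Hspa1a are shown because a heat shock element, the binding motif of heat shock factors, lies in both. The 250 bases before the start in RefSeq (GRCm38.p6) are printed 5′ to 3′ in the sense of the gene, with matches to GAANNTTC, an inverted pair of element units that reads the same on both strands, in capitals. Hspb1 is on the plus strand (chr5:135887669-135887918), with matches starting 117 and 97 bases before the start. Hspa1a is on the minus strand (chr17:34972157-34972406), with a match starting 104 bases before it.
Hspb1: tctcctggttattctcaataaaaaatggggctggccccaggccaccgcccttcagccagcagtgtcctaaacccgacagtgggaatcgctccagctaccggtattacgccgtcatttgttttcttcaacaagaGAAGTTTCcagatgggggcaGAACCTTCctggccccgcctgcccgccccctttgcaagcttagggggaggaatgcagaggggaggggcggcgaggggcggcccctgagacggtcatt
Hspa1a: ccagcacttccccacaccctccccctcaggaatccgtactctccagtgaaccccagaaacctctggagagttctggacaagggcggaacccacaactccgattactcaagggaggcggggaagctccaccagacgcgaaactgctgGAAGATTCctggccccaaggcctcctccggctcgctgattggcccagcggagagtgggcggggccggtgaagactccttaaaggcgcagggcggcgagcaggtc
The motif was found in 6.69% of all 32851 promoter stretches of that length, in 3 of the 19 named higher genes with an entry (Ankrd1, Hspa1a and Hspb1) and in 1 of the 21 named lower genes (Mtfp1). A match describes letters and is no evidence of binding.

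Genes known from injured muscle and nerve were among the largest ratios. Sprr1a, a small proline-rich protein that stressed cardiomyocytes make, was uneven: its median was 0 CPM in both groups, and its highest well held 2632 CPM among Ino80-high and 845 CPM among Ino80-low wells. A count was found in 49.9% and 29.9% of wells. After thinning wells to 30000 counts, which left out 3 wells of each group, the shares were 24.9% and 3.52%. Pooled levels were 148 and 1.28 CPM, a log2 ratio of 6.85 (6.66 to 7.05), with 73 Ino80-high wells and 1 Ino80-low well at or above 100 CPM. Bglap3, an osteocalcin-related gene whose reads could be split with Bglap and Bglap2, had the same uneven form, with medians of 0 CPM and pooled levels of 101 and 0.662 CPM.

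Lgals3 (galectin-3, a secreted lectin) was more even, at 0, 164 and 3243 CPM in the lowest, median and highest Ino80-high well and 0, 2.29 and 277 CPM in Ino80-low wells, and 2 Ino80-low wells reached the Ino80-high median. Hbegf, a heparin-binding growth factor of the EGF family, had medians of 863 (0 to 5851) and 11.1 (0 to 1049) CPM. Prr13 had medians of 572 (12.4 to 2684) and 8.58 (0 to 433) CPM, and no Ino80-low well reached the median of the Ino80-high wells. Of the 24 genes in the list led by Sprr1a, which earlier results of these data had shaped, 18 were measured and all 18 were at least 2-fold higher (median 3.17). With a mean of 10 CPM on days 1 and 2 as the minimum, 11 were measured and all were at least 1.5-fold higher (median 2.85). That minimum sets which members count and does not change how the list was made. Both counts are thus descriptions of a list shaped by these data. Other members were Timp1, an inhibitor of matrix proteases (132 and 6.13 CPM), Tnfrsf12a, the TWEAK receptor (245 and 19.6 CPM), Anxa2, an annexin (308 and 31.2 CPM), and Gdf15, a stress cytokine (45.4 and 1.40 CPM). Spp1, osteopontin, was at 45.7 and 0.718 CPM, with 41.8% of the Ino80-high counts from a single well.

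Antioxidant genes under the transcription factor NRF2 were mostly higher: of 24, 19 were measured, 14 were at least 1.5-fold higher and 1 lower (median 1.46). Srxn1, sulfiredoxin, which repairs oxidised peroxiredoxins, had medians of 138 (0 to 2322) and 1.81 (0 to 694) CPM and a log2 ratio of 5.06 (4.98 to 5.15). Nfe2l2, which encodes NRF2, was at 148 and 50.5 CPM, Txnrd1, thioredoxin reductase, at 133 and 22.5 CPM, and Gclm, of glutathione synthesis, at 76.6 and 9.88 CPM. Mt1, a metallothionein, had medians of 2904 (224 to 18204) and 1157 (0 to 5448) CPM. Fth1, the ferritin heavy chain that stores iron, had 5672 (1714 to 11182) and 2666 (0 to 5714) CPM. The lower member was Sod2, the mitochondrial superoxide dismutase, at 360 and 553 CPM.

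Promoters of Srxn1 and Sprr1a both hold the AP-1 motif TGANTCA, a core that antioxidant response elements can contain and that reads the same on both strands, in capitals below. Srxn1 is on the plus strand (chr2:152105274-152105523) and Sprr1a on the minus strand (chr3:92485882-92486131), each with 2 matches.
Srxn1: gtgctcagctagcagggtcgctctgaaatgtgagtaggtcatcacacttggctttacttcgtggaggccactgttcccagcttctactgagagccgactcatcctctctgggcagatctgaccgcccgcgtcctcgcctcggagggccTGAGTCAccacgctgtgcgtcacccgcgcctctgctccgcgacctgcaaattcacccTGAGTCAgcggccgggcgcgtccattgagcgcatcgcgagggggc
Sprr1a: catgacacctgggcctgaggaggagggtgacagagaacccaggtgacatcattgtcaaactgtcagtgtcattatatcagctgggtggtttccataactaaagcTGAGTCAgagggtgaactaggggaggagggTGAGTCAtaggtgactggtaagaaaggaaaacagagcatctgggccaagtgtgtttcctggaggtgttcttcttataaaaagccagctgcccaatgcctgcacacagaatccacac
This motif was found in 6.75% of the promoter stretches, in 3 of the 19 named higher genes (Sprr1a, Srxn1 and Ubb) and in 2 of the 21 named lower genes (Lrtm1 and Ndufa5).

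**Figure D2:**
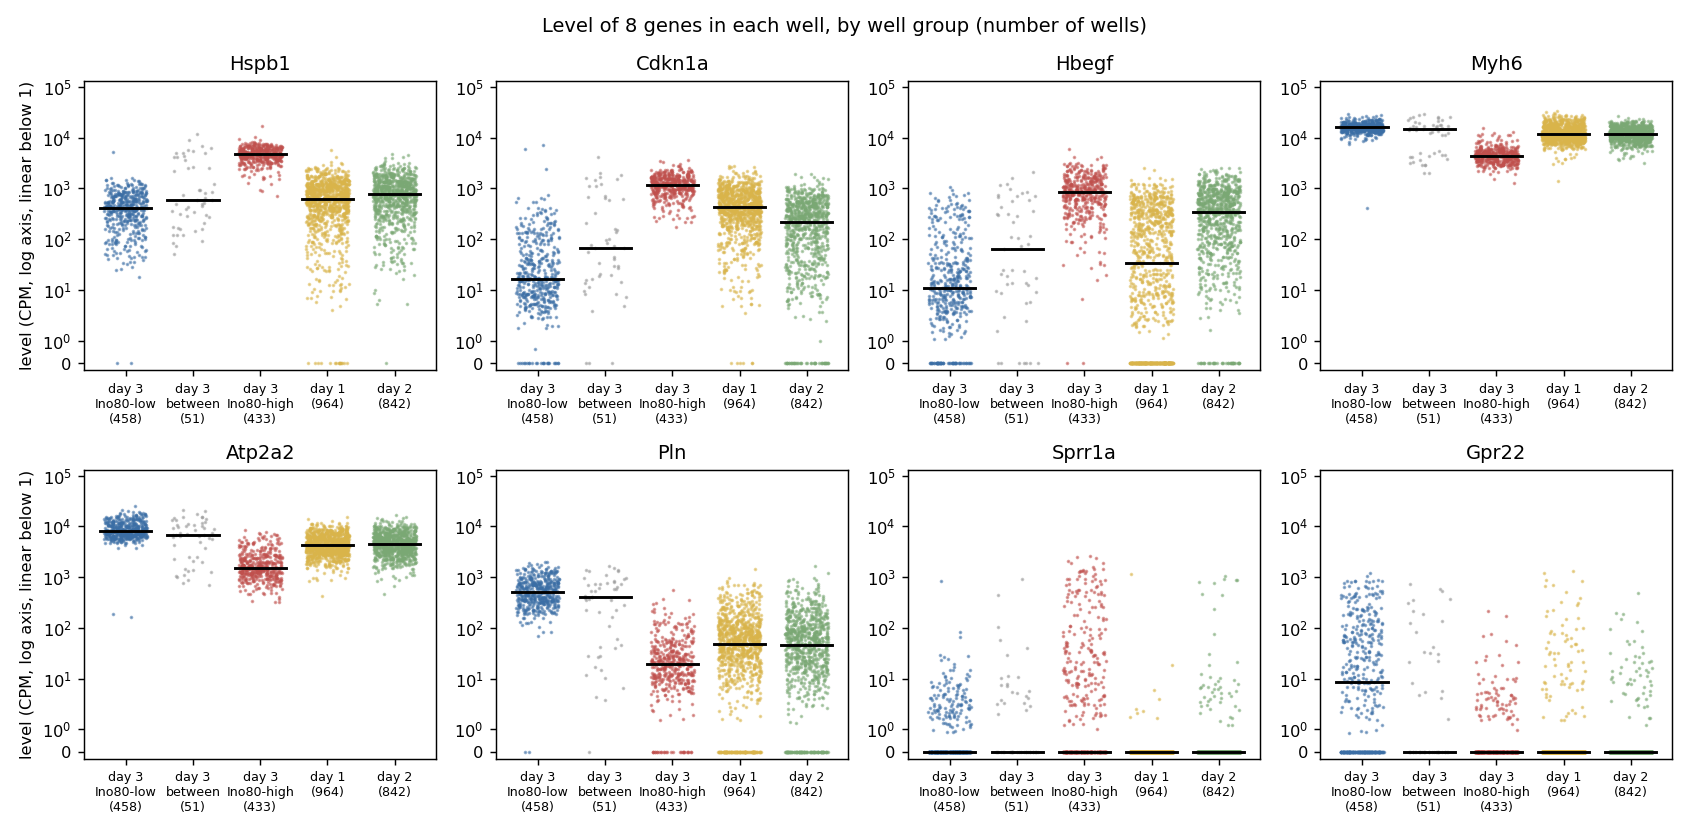
Level of 8 genes in each well (CPM, log axis that is linear below 1) by well group; points are wells and bars are medians. Hspb1, Cdkn1a and Hbegf are highest and Myh6, Atp2a2 and Pln lowest in the day 3 Ino80-high wells. Sprr1a has a count in 49.9% of Ino80-high wells and Gpr22 in 63.3% of Ino80-low wells.

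Stress and growth-arrest regulators differed in both directions. Cdkn1a, the cell cycle inhibitor p21, was at 170, 1189 and 3628 CPM in the lowest, median and highest Ino80-high well and at 0, 16.0 and 7303 CPM in Ino80-low wells, of which 3 reached the Ino80-high median. Its pooled level was 1202 and 53.7 CPM (log2 ratio 4.49, 4.46 to 4.52). Of 11 measured p53 targets of 20, 6 were higher and 3 lower at 1.5-fold. Trp53inp1 was at 26.4 and 3.00 CPM and Bax, a pore-forming death effector, at 17.7 and 5.21 CPM, whereas Ccng1, cyclin G1, was at 132 and 539 CPM and Perp, a desmosomal protein, at 85.4 and 194 CPM. The p53 targets thus did not differ as a block.

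Of the integrated stress and unfolded protein response, 16 of 28 genes were measured, with 8 higher and 3 lower. Ppp1r15a (GADD34, which reverses eIF2 alpha phosphorylation) had medians of 55.0 (0 to 1846) and 0 (0 to 566) CPM. Atf4, the transcription factor of the pathway, was at 125 and 36.8 CPM, Mthfd2, a mitochondrial folate enzyme, at 46.1 and 4.20 CPM, and Slc3a2, a subunit of amino acid transporters, at 472 and 67.2 CPM. Genes of the endoplasmic reticulum had no common direction. The chaperones Hspa5 (BiP, 1529 and 1441 CPM) and Hsp90b1 (299 and 370 CPM) were within 1.5-fold, the co-chaperone Dnajb9 was higher (94.3 and 24.9 CPM), and the disulfide isomerase Pdia4 was lower (7.48 and 13.5 CPM). Of 18 measured immediate early genes 12 were higher and 0 lower. Nr4a2, an orphan nuclear receptor, was at 24.9 and 1.16 CPM and Junb at 41.1 and 9.05 CPM. Fos (71.1 and 67.2 CPM) and Egr1 (43.4 and 38.3 CPM) were within 1.5-fold.

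The fetal and hypertrophic program was higher in 16 of 20 measured members and lower in 1 (median 2.09). Ankrd1, which responds to stretch of the muscle cell, was at 370, 3498 and 21465 CPM in the lowest, median and highest Ino80-high well and at 0, 598 and 6719 CPM in Ino80-low wells, where 3 wells reached the Ino80-high median. Acta1, skeletal alpha-actin, had medians of 2210 (221 to 8849) and 460 (0 to 3085) CPM. The natriuretic peptide precursor Nppb was at 1197 and 216 CPM and Nppa, also an atrial marker, at 224 and 32.9 CPM. The atrial markers given above were higher in the same wells, and their part here was not tested. Myh7, the fetal myosin heavy chain, differed by less than 1.5-fold (119 and 85.7 CPM), and Fhl2, a LIM protein of the sarcomere, was the lower member at 93.8 and 521 CPM.

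Skeletal muscle troponins were higher where the cardiac form was lower. Tnnt1, slow skeletal troponin T, had medians of 339 (0 to 1626) and 4.85 (0 to 835) CPM, and Tnnt3, fast skeletal troponin T, 18.2 (0 to 1197) and 0 (0 to 80.2) CPM. Tnnt2, cardiac troponin T, had medians of 18757 (8438 to 37106) and 30262 (2191 to 44016) CPM, so the skeletal forms stayed far below it in counts. Counts of different genes are not per length. Of 10 measured tubulins 7 were at least 1.5-fold higher, led by Tubb6 (151 and 12.2 CPM) and Tubb2a (158 and 15.7 CPM), whereas Tuba8 was lower (9.64 and 43.4 CPM). Nmrk2, a nicotinamide riboside kinase of NAD synthesis, had medians of 300 (0 to 3086) and 2.68 (0 to 424) CPM.

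Ribosomal protein genes were higher in 40 of 43 measured members and lower in 0 (median 1.05), for example Rps14 at 4130 and 1788 CPM. This count rests on the scaling: with size factors 17 of 43 were higher and 0 lower (median 0.54). All 13 measured matrix genes of 27 were at least 2-fold higher (median 2.26), and all 10 were at least 1.5-fold higher when the measured genes were taken by their day 1 and day 2 levels. Among them were Col4a1, a basement membrane collagen (370 and 103 CPM), Sparc, a collagen-binding protein (456 and 114 CPM), and Tgfb2, a growth factor (78.2 and 8.80 CPM). The endothelial markers given above were higher in the same wells, and their part in these matrix genes was not tested.

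On the lower side, calcium cycling stood out in level and ratio. Pln, phospholamban, the inhibitor of the calcium pump, was at 0, 19.2 and 552 CPM in the lowest, median and highest Ino80-high well and at 0, 505 and 1976 CPM in Ino80-low wells, and a single Ino80-high well reached the Ino80-low median. Its pooled levels of 31.1 (30.2 to 32.1) and 554 (550 to 557) CPM were 17.8-fold apart, a log2 ratio of −4.15. Atp2a2, the pump SERCA2 itself, had medians of 1495 (316 to 8332) and 8128 (162 to 24620) CPM (log2 ratio −2.23). Of 21 measured genes 12 were lower and 7 higher (median −1.34). The lower ones included Ryr2, the release channel (431 and 1685 CPM), its partners Trdn, triadin (264 and 1667 CPM), and Casq2, calsequestrin (367 and 1134 CPM), and Hrc, a calcium-binding protein of the same store (2146 and 5760 CPM). The 7 higher ones included S100a1, a calcium sensor (6789 and 4502 CPM), and Sln, given above as an atrial marker (1117 and 602 CPM).

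No measured ion channel gene was 1.5-fold higher, and 10 of 14 were lower (median −1.28). Kcnip2, which assists the transient outward potassium channel, had medians of 0 (0 to 316) and 10.4 (0 to 1159) CPM and pooled levels of 5.20 and 84.2 CPM. Kcnd2, a pore subunit of the same current, was at 2.55 and 42.7 CPM, and Kcnj3, a G protein-gated potassium channel, at 9.49 and 111 CPM. Kcnip2, Kcnd2 and Kcnj3 were under 10 CPM in Ino80-high wells and passed the minimum through the Ino80-low wells.

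Gpr22, an orphan G protein-coupled receptor of heart muscle, had the largest ratio among named lower genes. Its median was 0 CPM (highest 210) in Ino80-high and 8.37 CPM (highest 1209) in Ino80-low wells, with 2 and 98 wells at or above 100 CPM. Pooled levels were 1.6 and 108 CPM, a log2 ratio of −6.08 (−6.29 to −5.88), and thinned wells held a count in 2.79% and 39.6%. Of 17 measured genes of G protein and adrenergic signalling 10 were lower and 4 higher (median −0.92), with Adra1b, an alpha-1 adrenergic receptor, at 4.21 and 23.5 CPM and P2ry1, a purinergic receptor, at 2.04 and 21.8 CPM. Adra1b and P2ry1 were under 10 CPM in Ino80-high wells and passed the minimum of 10 CPM through the Ino80-low wells. Prkar1a, a regulatory subunit of protein kinase A, was higher (503 and 213 CPM). That list's median was 0.38 over the 5 members with a mean of at least 50 CPM.

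The adult sarcomere was lower in 14 of 28 genes and higher in 4 (median −0.59), and with size factors in 22 and 3. Myh6 was at 1262, 4390 and 15698 CPM in the lowest, median and highest Ino80-high well and at 406, 15847 and 28793 CPM in Ino80-low wells, and no Ino80-high well reached the Ino80-low median. Its pooled levels of 4631 (4619 to 4642) and 16205 (16186 to 16224) CPM were 3.5-fold apart. Ttn, titin, had medians of 4295 (753 to 37481) and 13365 (811 to 59477) CPM, and Actc1, cardiac actin, 3778 (1027 to 27984) and 11537 (743 to 19500) CPM. The myosin light chains Myl2 (15187 and 17436 CPM) and Myl3 (14051 and 16233 CPM) were within 1.5-fold, so the list did not differ evenly. The 4 higher members were Flnc, filamin C (369 and 54.2 CPM), Synpo2l (290 and 81.5 CPM), Nrap (180 and 100.2 CPM) and Cryab.

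Cell contact genes were lower in 8 of 17 and higher in 4 (median −0.49), with Gja1, the gap junction connexin 43, at 45.7 and 210 CPM, and Dmd, dystrophin, at 45.2 and 218 CPM. Of 15 measured cardiac transcription factors 6 were lower and 2 higher. Mef2a (74.3 and 208 CPM), Mef2c (38 and 131 CPM) and Prox1 (11.9 and 63.3 CPM) were lower, while Gata4 (13.7 and 13.5 CPM) and Tbx20 (28.4 and 25.4 CPM) were within 1.5-fold. Of 6 measured partners of the INO80 complex, Ino80 aside, 3 were higher and 1 lower: Actb, beta-actin, which is mostly cytoskeletal (947 and 159 CPM), Ino80c (29.6 and 13.5 CPM) and Ruvbl1 (28.6 and 16.4 CPM) were higher and Actr8 lower (16.8 and 29.7 CPM). The median of these partners, 0.43, was −0.08 with size factors.

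Genes of fat use were mostly lower. Of 24 measured genes of fatty acid uptake and oxidation 17 were lower and 0 higher (median −0.81). Lpl, lipoprotein lipase, had medians of 2156 (271 to 10638) and 7396 (325 to 23411) CPM. Acsl1, acyl-CoA synthetase (66.2 and 344 CPM), Fabp3, the heart fatty acid binding protein (1930 and 4383 CPM), and Ppargc1a, which drives the making of mitochondria (18.2 and 99.4 CPM), were lower as well. Targets of PPAR split, with 9 of 16 lower and 4 higher. The higher ones were Angptl4, a lipase inhibitor (119 and 11.9 CPM), Plin2, a lipid droplet coat protein (385 and 61.3 CPM), Pdk4 (99.6 and 46.9 CPM) and Cidea (95.5 and 43.8 CPM).

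Of 17 genes of the TCA cycle 10 were lower and 0 higher (median −0.63), among them Ogdh (290 and 782 CPM) and Mdh1, the cytosolic malate dehydrogenase (799 and 2579 CPM). With size factors all 17 were lower. The nuclear genes of complex I were lower in 9 of 37 (median −0.27) and those of complexes II to V in 13 of 40 (median −0.36), with 0 higher in either. The share for complex I is near the 19.7% of all measured genes that were lower. With size factors 30 of 37 (median −0.78) and 32 of 40 (median −0.87) were lower. Slc25a4, the mitochondrial ADP/ATP carrier, had medians of 8653 (2197 to 15253) and 15704 (5917 to 39438) CPM, and Ndufa5, of complex I, 4618 (1131 to 12656) and 7373 (81.1 to 16788) CPM. All 8 measured mitochondrially encoded genes were within 1.5-fold on a total over all mouse genes (median −0.07). Glycolysis had no common direction, with 4 of 21 genes higher and 7 lower (1 and 10 with size factors): Eno1 was at 117 and 37.5 CPM and Pfkm, muscle phosphofructokinase, at 174 and 582 CPM.

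Further genes with large ratios on the lower side had less in common. Lrtm1 had medians of 7.29 (0 to 1144) and 321 (0 to 2448) CPM. Mtfp1, of mitochondrial fission, had 2.08 (0 to 645) and 189 (0 to 1664) CPM, and Ttll1, a tubulin polyglutamylase, 2.88 (0 to 549) and 114 (0 to 1261) CPM. Angpt1, the ligand of the endothelial receptor Tie2, was at 1.72 and 55.5 CPM, with 40% of the few Ino80-high counts from a single well. Mylk4, Tnni3k (a cardiac kinase that binds troponin I), Fbxl22, Asb11, Ogn, Epha4 and Slc25a34 had log2 ratios between −3.97 and −3.33. On the higher side the named genes not yet given were Arrdc4, an arrestin-domain protein (96.1 and 2.56 CPM), Mir22hg, the host of microRNA-22 (186 and 9.22 CPM), Ankrd2, a muscle ankyrin repeat protein (88.1 and 1.91 CPM), Clu, clusterin (4274 and 1934 CPM), and Hsp90ab1 (4015 and 2064 CPM). In no named gene did the well ranges of the groups stay apart.

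**Figure D3:**
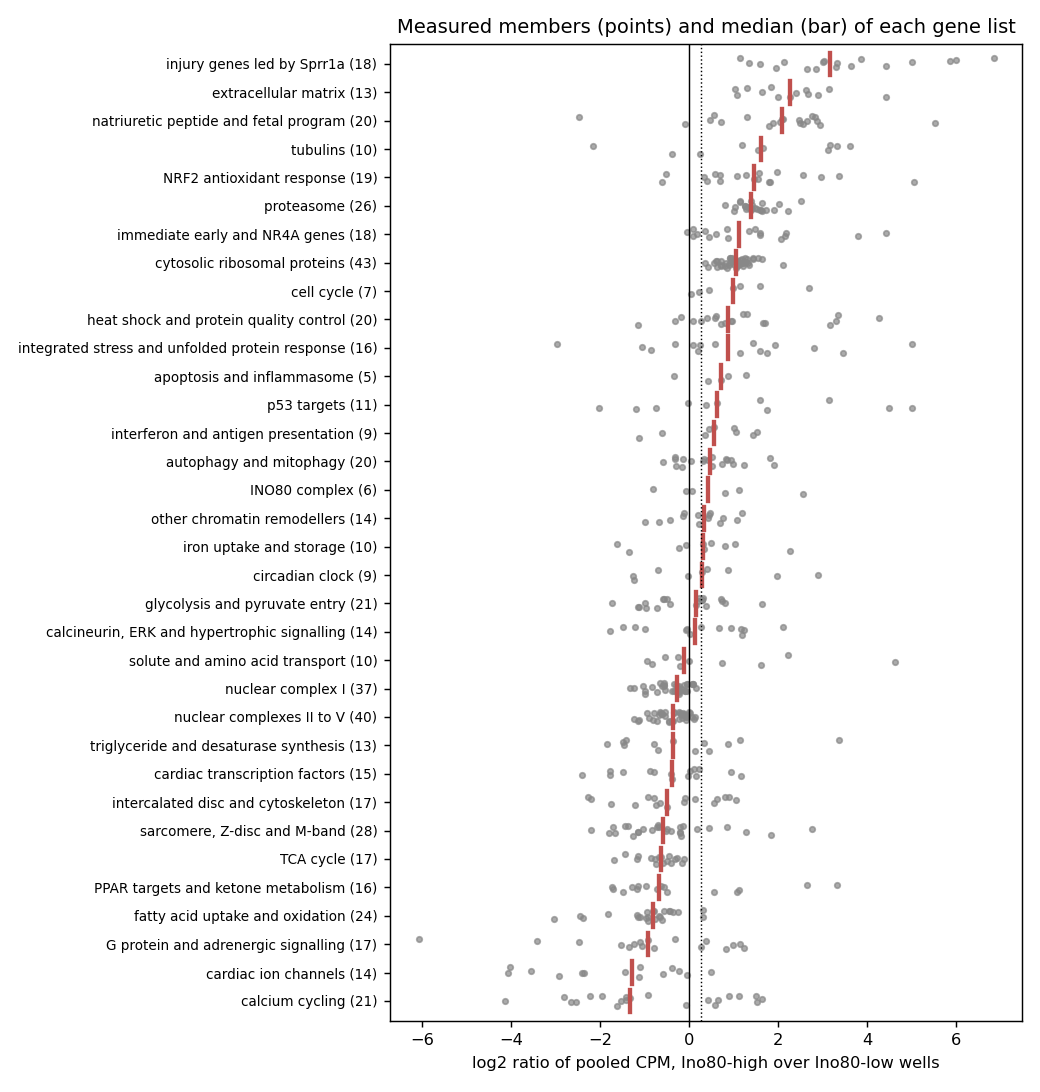
Log2 ratio of pooled CPM, Ino80-high over Ino80-low wells, for the measured members (grey points) and median (red bar) of each gene list with at least 5 measured members, whose number stands in brackets; the dotted line is the median of all 6049 measured genes. Injury, matrix and fetal genes stand highest, and calcium cycling and ion channel genes lowest.

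Wells were also put in 6 bins of Ino80 to show levels along it. Hspb1 was at 483 CPM in the 130 wells under 10 CPM of Ino80 and 478 CPM in the 328 wells from 10 to 100 CPM. It was at 1490 CPM in the 51 wells between the cuts, then at 5147, 4978 and 4229 CPM in the 91, 263 and 79 wells from 1000 to 2000, 2000 to 4000 and from 4000 CPM. Pln was at 495, 582, 521, 31.6, 30.5 and 33.3 CPM over the same bins. Both genes thus differed far more between the groups than along Ino80 within them. Ttn differed, at 4393, 5253 and 9020 CPM over the 3 upper bins, so that wells with the most Ino80 held more of it. Within Ino80-high wells, as a description over 433 wells that share a library, Ttn had a Spearman correlation of 0.31 with Ino80 and 0.60 with the mitochondrial share, and Ubb had −0.30 and −0.67. The part of the mitochondrial share in these relations was not tested.

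**Figure D4:**
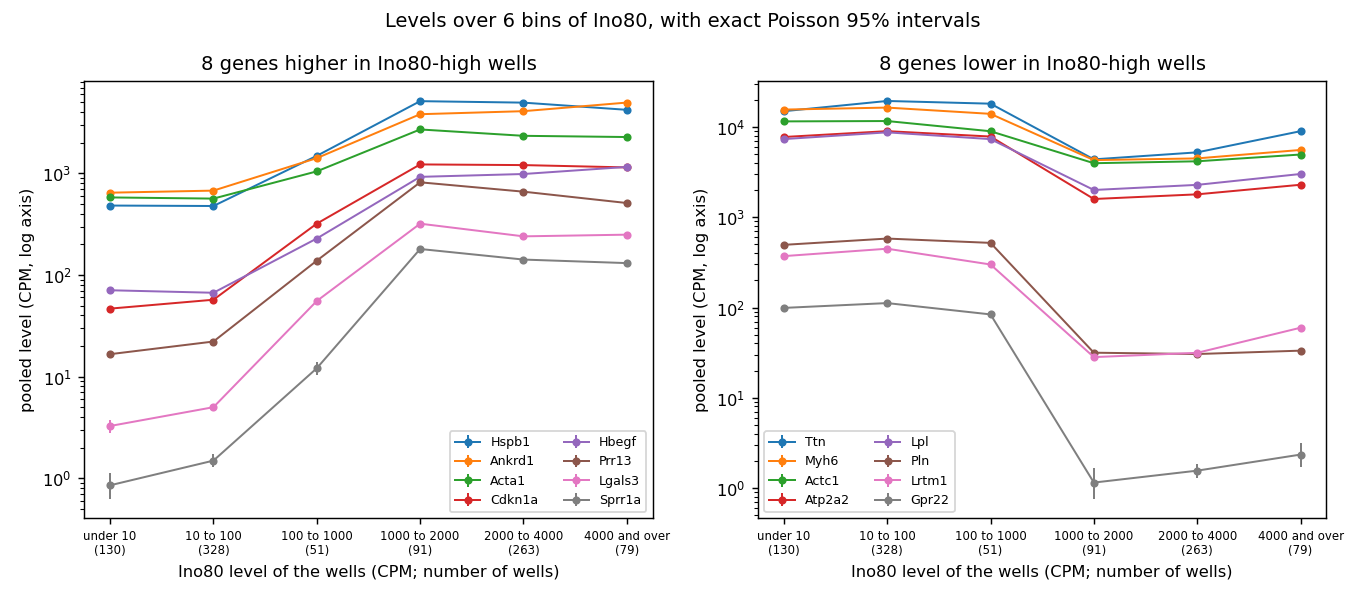
Pooled level (CPM, log axis, exact Poisson 95% intervals) of 8 genes higher and 8 genes lower in Ino80-high wells, over 6 bins of the wells' Ino80 level with the number of wells in brackets. Lines join bins for reading only: levels differ most between the bins of 10 to 100 and 1000 to 2000 CPM, and Ttn, Lpl and Lrtm1 are higher again at 4000 CPM and over.

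Day 1 and day 2 wells had as much Ino80 as the Ino80-high wells of day 3 but mostly intermediate levels of the named genes. Hspb1 was at 737 and 928 CPM on days 1 and 2, against 4896 and 479 CPM in Ino80-high and Ino80-low wells. Myh6 was at 12805 and 12260 CPM against 4631 and 16205 CPM, and Pln at 89.9 and 96.2 CPM against 31.1 and 554 CPM. All 25 named higher genes were above both earlier libraries in Ino80-high wells, and 18 were below both in Ino80-low wells. All 25 named lower genes were below both in Ino80-high wells and 24 above both in Ino80-low wells. These genes were named for being far apart between the day 3 groups, which by itself favours intermediate levels elsewhere. The counts are thus a description, and the like share over all measured genes was not taken. The earlier libraries also differed in mitochondrial share, so day, library and handling cannot be told apart here.

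The same cuts were applied to the 150 wells left out for markers. Macrophage-marker wells fell into 28 Ino80-high and 31 Ino80-low wells and fibroblast-marker wells into 37 and 42. All 25 named higher and all 25 named lower genes had the same direction in both sets. The median log2 ratio of the higher genes was 4.28 in the compared wells, 3.75 in macrophage-marker and 3.19 in fibroblast-marker wells, and that of the lower genes −3.5, −2.18 and −3.17. Myh6 was at 3492 and 14243 CPM in Ino80-high and Ino80-low macrophage-marker wells, Hspb1 at 4151 and 454 CPM and Ino80 itself at 2091 and 14.9 CPM. Lyz2, a macrophage lysozyme, was at 2109 and 1394 CPM there and at 43.5 and 13.9 CPM in the compared wells. The difference between Ino80-high and Ino80-low wells was therefore also measured in wells whose markers are those of other cells. The share of RNA that such wells hold from cardiomyocytes was not tested.

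**Figure D5:**
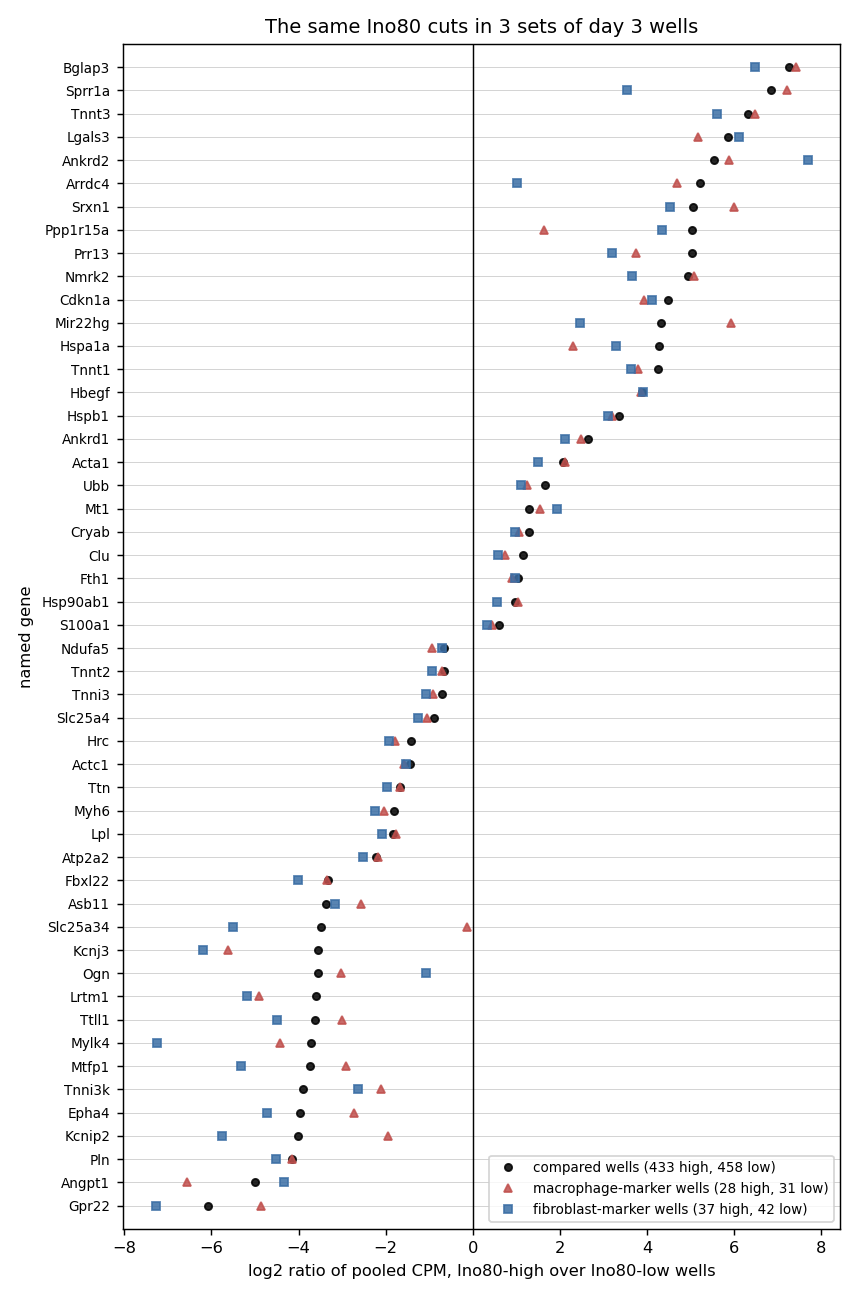
Log2 ratio of pooled CPM, Ino80-high over Ino80-low wells, of the 50 named genes in the compared wells (circles), in wells left out for macrophage markers (triangles) and in those left out for fibroblast markers (squares). The direction is the same in the 3 sets for each gene; Slc25a34 is nearest to 0 in macrophage-marker wells (−0.14).

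Over the 891 wells, the genes most like Gpr22 by Spearman correlation were Lpl (0.50), Pln (0.50), Atp2a2 (0.49), Myh6 (0.47) and Fhl2 (0.47), and those most like Sprr1a were Prr13 (0.29), Rhoc (0.28), Ino80 (0.27), Gm38099 (0.27) and Srxn1 (0.26). These values mix the difference between groups with the spread within them. Within either group the closest gene reached 0.22 at most, with Fem1b for Gpr22 and Neurl2 for Sprr1a (0.21) in Ino80-high wells, which in sparse counts is no finding.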

How the data were processed

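For each library the authors deposited a table of whole-number counts, with genes in rows and wells in columns. Per the submitters' processing notes the authors used cutadapt, STAR and featureCounts on mm10; the sources used here give no versions, strand setting, annotation or use of molecular identifiers. Symbols and positions are from GENCODE M21 (55141 of 55401 mouse identifiers matched) and promoters from RefSeq (40 of 50 named genes). Of the named genes, 14 have exons overlapping another gene, 12 on the opposite strand (Nmrk2, Cdkn1a, Hspa1a, Ppp1r15a, Pln, Angpt1, Fbxl22, Kcnj3, Cryab, Ttn, Myh6 and Atp2a2), and reads of such pairs may not be told apart.

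Counts were summed over the wells of a group and divided by nuclear-encoded totals (124700042 and 178197781 counts). Levels have exact Poisson and ratios exact binomial 95% intervals, computed with scipy 1.17.1; a count of 0 was set to 3. Doublets were not called. The calculation was tested on simulated data. Named genes were the 15 highest and 15 lowest log2 ratios with 5 CPM added, then the 10 largest CPM differences each way among genes at least 1.5-fold apart. They needed a mean of 20 CPM, counts in 10% of wells of the higher group, at most 25% of counts from 1 well, a like direction when wells were averaged, and detection across wells that did not point the other way. Ino80, Esr1, Gt(ROSA)26Sor and unnamed, mitochondrial and ribosomal protein genes were left out. The groups, the 36 gene lists and 13 marker lists were chosen with earlier results of these data known.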

Additional observations from a re-analysis of the deposited data

How the results depend on the processing

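No paired analysis was possible because the comparison lies within 1 library. The counts of genes 2-fold apart stayed within 1.5 times under 10 of the 13 other settings listed first, and under taking measured genes by their day 1 and day 2 levels (1389 higher, 763 lower), which was chosen after seeing the data. They moved when size factors were medians of ratios (677 higher, 1421 lower). They also moved with a minimum mean of 50 CPM (442 and 266) and with no minimum (8842 and 3926), which change the number of genes tested. The shares higher and lower were 21.4% and 12.9% at 50 CPM. With no minimum they were 39.7% and 17.6%, against 23.4% and 11.5% at the minimum of 10 CPM. Of 550 values of the 50 named genes 0 reversed, and 47 genes kept a 1.5-fold difference throughout; with size factors S100a1 was at 0.08, Fth1 at 0.52 and Hsp90ab1 at 0.44, and without the marker exclusion S100a1 was at 0.57. The named genes were picked for large differences in the same counts, so few reversals could occur. A like direction of averaged wells was required for naming, so under that setting none could reverse. Of 484 list medians under the alternatives 70 moved by over 0.29 on the log2 scale, 35 of them (every list) with size factors. The sign changed in 14, in 10 lists, 7 of them with size factors: INO80 partners (−0.08), other remodellers (−0.19), glycolysis (−0.36), autophagy (−0.05), hypertrophic signalling (−0.37), circadian clock (−0.22) and iron (−0.20). Only G protein and adrenergic signalling had been past 1.5-fold before its sign changed (0.38 at a minimum of 50 CPM, over 5 genes). With genes taken by day 1 and day 2 levels the fetal program had 14 of 19 higher, stress response genes 6 of 14 and p53 targets 4 of 9. In wells with 15 to 25% mitochondrial counts (321 and 315 wells) 1462 genes were higher and 694 lower. In the 281 and 385 wells left after dropping the top 5% for 6 other marker lists the counts were 1397 and 706. With 1 library, depth limits only rare transcripts, and animal-to-animal spread is unknown.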
